A study of Mus musculus with 3 samples.

Results

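To examine how a histone mark of transcribed genes differed at genes that guide regulatory T (Treg) cells to tissues, H3K36me3 was described at 8 genes of tissue-homing and guidance receptors: Ccr1, Ccr2, Ccr8, Ccr9, Cxcr3, Cxcr6, Gpr15 and Gpr183. The genes were chosen as a family by what their receptors do, with earlier results of these data known, so their counts beside the background describe these genes and test nothing. A peak of the deposited mm10 table was given to a gene when its midpoint lay in the gene body of GENCODE M21. All 8 genes had at least 1 peak, out of 11946 genes with a peak and 55450 genes in the annotation, and together they held 48 of 120910 peaks. The mark was profiled by chromatin immunoprecipitation sequencing (ChIP-seq) in Treg cells (CD3+CD4+Foxp3-YFP+) from spleen and from large intestine (LI). The cells were sorted from adult C57BL/6 mice of the Foxp3-YFP (Foxp3Cre-YFP) genotype, in which the Foxp3 locus drives a fusion of Cre and the fluorescent reporter, and both tissues shared strain and genotype. Cells of 7 male and 7 female mice were pooled, and each tissue gave 1 library, so no difference below has a replicate check and no p-value was computed. The third library of the series, an input of splenic Treg cells, was not analysed here.

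H3K36me3 is written by Setd2 behind elongating RNA polymerase II and accumulates over the bodies of transcribed genes, mostly towards their 3′ ends. The receptors described here are G protein-coupled receptors, and most are encoded by a single coding exon that lies far from the transcript start. Most bind chemokines, and Gpr183 binds oxysterols. The receptors signal through Gi proteins to direct cell migration. Ccr9 and Gpr15 are known for guiding lymphocytes to the small and the large intestine, Ccr8 marks Treg cells of non-lymphoid tissues, and Cxcr3 is associated with type 1 inflammation.

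Values are RPKM, which corrects reads for length and for sequencing depth, averaged over a peak, and both libraries were brought to 1 total over all peaks. The depths worked out from the values were 29627461 mapped reads in spleen and 38096769 in LI. A gene's values were summed over its peaks, and ratios are on the log2(summed value + 0.5) scale, LI over spleen. Intervals are approximate 95% intervals of counting error, worked out by a rule chosen after the values were seen, for reads taken to cover 200 bp, and say nothing of the spread between animals or preparations. The length a read covered in the coverage tracks is not known, and reads covering 75 bp, the sequenced length, give narrower intervals, which are printed where they change whether 0 is included or whether 2 intervals overlap. Because pooled cells were measured, fewer cells with the mark and less mark per cell cannot be told apart. The sorted cells carried the mark over all 9 Treg and T cell markers examined, of which 4 were higher in LI and 5 in spleen, with a median log2 ratio of -0.08. Foxp3 had 135 RPKM in spleen and 154 RPKM in LI (0.19). The largest sum was that of Ikzf2, a Treg transcription factor gene, with 1224 and 837 RPKM over 115 peaks (-0.55). Il2ra, the IL-2 receptor alpha chain gene, followed with 251 and 238 RPKM over 19 peaks (-0.08). Sums grow with the number of peaks. Averaged over the gene body, Ikzf2 had 5.49 and 3.86 RPKM, against 36.3 and 29.8 RPKM for the T cell receptor gene Trac with 1 peak. Of 10 myeloid markers 2 had a peak, and of 12 intestinal epithelium markers 4. Of 7 B cell markers 4 had a peak, and of 2 CD8 T cell markers 1. Over the annotation, which also holds non-coding genes and pseudogenes, 11946 of 55450 genes had a peak. These counts do not measure the share of other cells.

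H3K36me3 was higher in LI at 7 of the 8 receptor genes and higher in spleen at Cxcr3. The summed log2 ratios ran from -0.77 at Cxcr3 to 2.34 at Gpr15, with a median of 0.87, against a median of 0.0049 and quartiles of -0.20 and 0.24 over the 10885 genes with a summed signal of at least 20. Of the 5 receptor genes at or above that minimum (Ccr2, Ccr8, Ccr9, Cxcr6 and Gpr183), all 5 were higher in LI, against a background of 50.7% of genes. Ccr2 alone among those 5 was past 2-fold, against a background of 3.4% of genes past 2-fold higher in LI and 2.07% past 2-fold higher in spleen. Ccr2 reached the minimum only through LI, with 11.2 RPKM in spleen and 51.3 RPKM in LI, so its call is not independent of that filter. Ccr8 also fell short in spleen alone, with 10.9 RPKM there and 19.3 RPKM in LI. Ccr1, Gpr15 and Cxcr3 had 1 peak each and fell below the minimum. Cxcr3, the 1 gene higher in spleen, was thus left out at 18.8 RPKM over both libraries, so 5 of 5 depends on the minimum. Counted without a minimum, 7 of the 8 were higher in LI, against 50.7% of 11946 genes. With no minimum, Ccr1, Ccr2 and Gpr15 were past 2-fold higher in LI, 0 of the 8 were past 2-fold higher in spleen, and the backgrounds were 5.23% and 3.83% of 11946 genes.

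**Figure D1:**
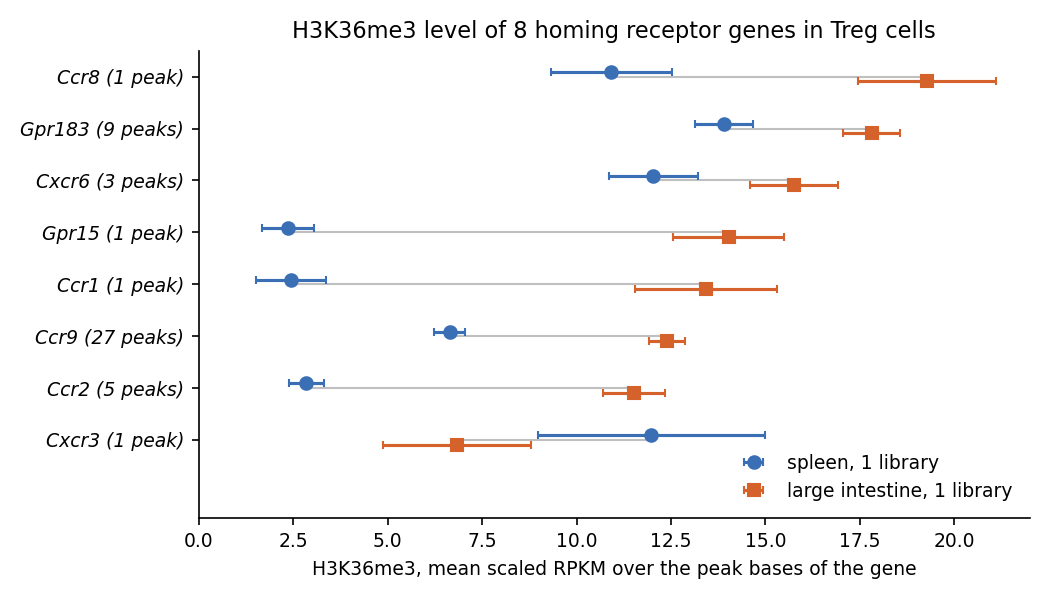
H3K36me3 level of each receptor gene as mean scaled RPKM over the bases of its peaks (x axis) in the spleen library (circles) and the LI library (squares), with bars of 1 approximate counting SE. Levels ran from 2.36 to 13.9 in spleen and from 6.83 to 19.3 in LI, and Cxcr3 was the one gene with its spleen value on the right.

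The level per peak base showed which genes were low in spleen. In spleen, Gpr15 (2.36 ± 0.69, counting SE), Ccr1 (2.43 ± 0.92) and Ccr2 (2.85 ± 0.47) differed from one another by less than their counting error. Ccr9 followed at 6.64 ± 0.40, and Ccr8 (10.9 ± 1.59), Cxcr3 (12 ± 3.0), Cxcr6 (12 ± 1.17) and Gpr183 (13.9 ± 0.77) formed the upper end. In LI the order was Cxcr3 (6.83 ± 1.97), Ccr2 (11.5 ± 0.81), Ccr9 (12.4 ± 0.48), Ccr1 (13.4 ± 1.88), Gpr15 (14.0 ± 1.46), Cxcr6 (15.7 ± 1.17), Gpr183 (17.8 ± 0.75) and Ccr8 (19.3 ± 1.84). Each gene from Ccr2 to Ccr8 lay within 2 counting SEs of the next in that order, and Cxcr3 lay 2.2 SEs below Ccr2. In spleen Ccr9 lay 6.2 SEs above Ccr2 and 2.6 SEs below Ccr8, and the other neighbours lay within 1.34 SEs of each other. The plot of levels by gene shows that Gpr15, Ccr1 and Ccr2, the lowest in spleen, were amid the others in LI.

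**Figure D2:**
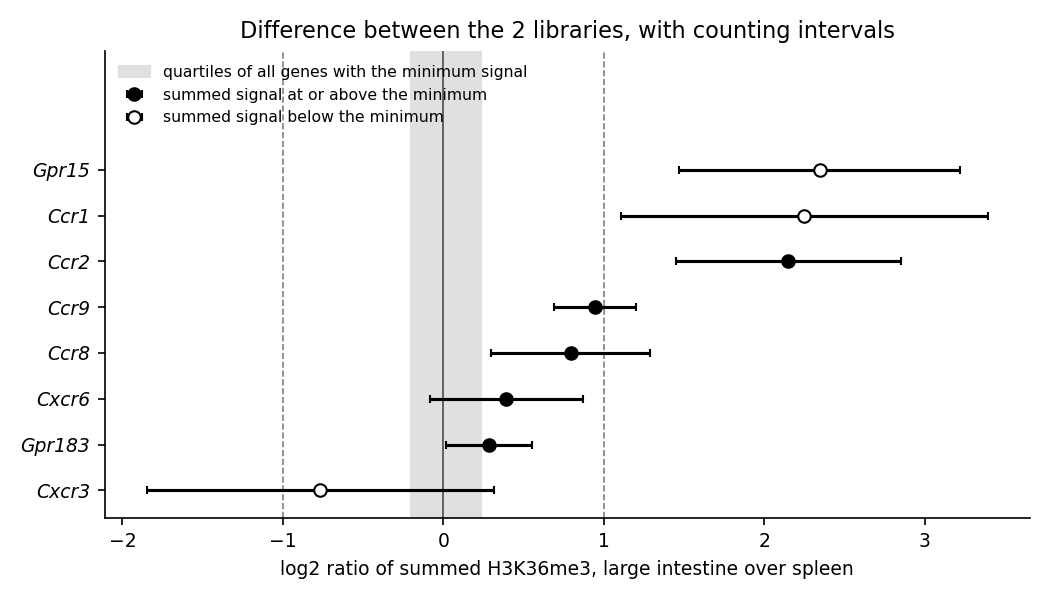
Summed log2 ratio of H3K36me3, LI over spleen (x axis), for each receptor gene, with approximate 95% counting intervals. Filled symbols are genes at or above the minimum summed signal and open symbols genes below it, the grey band spans the quartiles of all 10885 genes at or above the minimum, and dashed lines mark 2-fold. Intervals of 6 genes lay above 0, and those of Cxcr6 and Cxcr3 included 0 with reads of 200 bp, as drawn, and excluded it with reads of 75 bp.

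Sequence under the peaks is shown for the receptor genes because their strongest peaks covered coding sequence: the strongest peak of each of the 8 genes held coding bases, and 300 of them are printed, centred on the peak or, for Gpr183 and Gpr15, moved by 267 and 84 bases to stay in the coding exon. All bases are read 5′ to 3′ on the strand of the gene from GRCm38, the assembly of mm10, and capitals mark coding bases, which here are all of them. The windows are chr9:123963737-123964036 for Ccr1 (minus strand), chr9:124106281-124106580 for Ccr2 (plus), chr16:58717645-58717944 for Gpr15 (minus) and chr9:123779429-123779728 for Ccr9 (plus), the genes with the largest ratios.
Ccr1: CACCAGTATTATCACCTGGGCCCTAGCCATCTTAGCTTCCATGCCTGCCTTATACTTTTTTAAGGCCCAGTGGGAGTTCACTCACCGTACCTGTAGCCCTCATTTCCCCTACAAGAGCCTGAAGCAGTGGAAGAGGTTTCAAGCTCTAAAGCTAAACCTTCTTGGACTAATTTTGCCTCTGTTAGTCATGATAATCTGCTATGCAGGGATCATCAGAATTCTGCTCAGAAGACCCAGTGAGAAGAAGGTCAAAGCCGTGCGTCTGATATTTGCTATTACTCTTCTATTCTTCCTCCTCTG
Ccr2: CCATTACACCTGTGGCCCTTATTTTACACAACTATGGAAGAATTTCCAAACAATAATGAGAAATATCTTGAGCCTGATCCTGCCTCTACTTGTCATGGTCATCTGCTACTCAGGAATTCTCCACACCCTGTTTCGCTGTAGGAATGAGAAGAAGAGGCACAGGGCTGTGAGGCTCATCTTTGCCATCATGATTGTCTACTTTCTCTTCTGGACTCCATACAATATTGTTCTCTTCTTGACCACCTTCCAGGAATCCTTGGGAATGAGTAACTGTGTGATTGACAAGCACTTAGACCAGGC
Gpr15: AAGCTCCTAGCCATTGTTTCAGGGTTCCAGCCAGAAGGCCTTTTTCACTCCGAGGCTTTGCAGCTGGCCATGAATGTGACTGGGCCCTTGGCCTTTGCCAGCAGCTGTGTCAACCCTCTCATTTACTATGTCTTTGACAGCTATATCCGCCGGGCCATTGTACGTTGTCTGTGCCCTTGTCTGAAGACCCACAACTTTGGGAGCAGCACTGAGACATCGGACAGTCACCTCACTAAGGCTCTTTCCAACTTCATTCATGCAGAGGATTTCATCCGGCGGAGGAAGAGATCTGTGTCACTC
Ccr9: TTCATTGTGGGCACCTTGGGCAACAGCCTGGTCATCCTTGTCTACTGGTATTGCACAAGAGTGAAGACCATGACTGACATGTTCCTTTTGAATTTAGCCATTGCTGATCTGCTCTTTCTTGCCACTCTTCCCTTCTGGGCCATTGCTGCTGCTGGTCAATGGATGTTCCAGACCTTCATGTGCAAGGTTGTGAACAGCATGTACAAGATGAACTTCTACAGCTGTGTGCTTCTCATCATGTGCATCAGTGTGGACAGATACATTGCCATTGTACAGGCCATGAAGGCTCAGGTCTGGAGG
For the genes with smaller or opposite differences the windows are chr9:120094183-120094482 for Ccr8 (plus), chr9:123810498-123810797 for Cxcr6 (plus), chr14:121954037-121954336 for Gpr183 (minus) and chrX:101732571-101732870 for Cxcr3 (minus).
Ccr8: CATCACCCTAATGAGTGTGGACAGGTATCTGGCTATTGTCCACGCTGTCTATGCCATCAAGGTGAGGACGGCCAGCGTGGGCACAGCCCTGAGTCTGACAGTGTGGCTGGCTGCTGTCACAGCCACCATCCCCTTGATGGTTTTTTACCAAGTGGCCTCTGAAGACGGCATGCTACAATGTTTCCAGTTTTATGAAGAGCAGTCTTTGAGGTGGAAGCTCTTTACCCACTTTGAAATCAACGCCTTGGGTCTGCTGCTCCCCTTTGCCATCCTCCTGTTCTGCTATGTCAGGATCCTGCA
Cxcr6: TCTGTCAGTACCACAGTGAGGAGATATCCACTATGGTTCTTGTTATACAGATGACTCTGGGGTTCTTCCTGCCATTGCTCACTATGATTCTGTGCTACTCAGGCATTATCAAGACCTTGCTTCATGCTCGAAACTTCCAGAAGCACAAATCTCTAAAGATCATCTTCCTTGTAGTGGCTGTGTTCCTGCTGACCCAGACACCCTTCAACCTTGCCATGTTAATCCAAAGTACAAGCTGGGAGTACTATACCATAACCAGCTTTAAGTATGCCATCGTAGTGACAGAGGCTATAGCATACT
Gpr183: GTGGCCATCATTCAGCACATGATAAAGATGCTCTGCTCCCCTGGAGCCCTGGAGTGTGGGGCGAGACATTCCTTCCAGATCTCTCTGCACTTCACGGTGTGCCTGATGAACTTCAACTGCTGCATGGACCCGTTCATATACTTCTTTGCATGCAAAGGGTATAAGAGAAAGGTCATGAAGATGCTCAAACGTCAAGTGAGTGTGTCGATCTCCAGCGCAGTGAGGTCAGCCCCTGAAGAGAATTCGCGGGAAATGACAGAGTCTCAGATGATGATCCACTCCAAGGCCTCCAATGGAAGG
Cxcr3: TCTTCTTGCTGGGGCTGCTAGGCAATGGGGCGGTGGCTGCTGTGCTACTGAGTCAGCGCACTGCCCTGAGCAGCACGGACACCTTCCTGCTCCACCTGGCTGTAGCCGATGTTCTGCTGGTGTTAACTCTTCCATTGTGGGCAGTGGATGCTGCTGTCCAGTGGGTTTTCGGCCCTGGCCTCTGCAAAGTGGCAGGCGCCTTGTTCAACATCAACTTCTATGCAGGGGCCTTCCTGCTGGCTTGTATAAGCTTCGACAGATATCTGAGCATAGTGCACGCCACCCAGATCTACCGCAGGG
The printed stretches held 44% GC in Ccr2, 44.3% in Cxcr6, 46% in Ccr1, 48% in Ccr9, 51% in Gpr183, 52% in Gpr15, 52.3% in Ccr8 and 57.7% in Cxcr3. Chemokine receptor genes are related in sequence, so the chance that reads of one were placed on another was examined. Of the 30716 stretches of 75 bases in the peaks of the 8 genes, 99.1% occurred once in the chromosomes of the genome. For Ccr2 the share was 98.1%, for Ccr9 98.2%, and for Ccr1, Gpr15, Ccr8, Cxcr3, Cxcr6 and Gpr183 it was 100%.

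Ccr1, a receptor for inflammatory chemokines such as Ccl3 and Ccl5, lies at chr9:123962124-123968692 on the minus strand. It had 1 peak of 979 bp (chr9:123963397-123964375), which covered 89.1% of its coding sequence. Its level was 2.43 RPKM in spleen and 13.4 RPKM in LI, a log2 ratio of 2.25 (interval 1.10 to 3.39). The spleen value was lower than that of all but 1.31% of peaks and rested on about 7 reads, against about 51 in LI. With a pseudocount of 5 in place of 0.5 the ratio was 1.31. Peaks were called in each tissue and merged, so a peak found in LI alone is low in spleen by the way it was found, and the table does not say in which tissue a peak was called.

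Ccr2, the receptor for Ccl2, Ccl7 and Ccl12 that brings cells to inflamed tissue, lies at chr9:124101950-124113557 on the plus strand. Its 5 peaks summed to 11.2 RPKM in spleen and 51.3 RPKM in LI, a log2 ratio of 2.15 (interval 1.45 to 2.85). Each of the 5 was past 2-fold higher in LI, with log2 ratios from 1.63 to 2.70. The longest, of 2395 bp, held the whole coding sequence and went from 3.85 RPKM in spleen to 13.0 RPKM in LI. An intronic peak ahead of it went from 2.0 to 7.96 RPKM. The 3 peaks after the coding sequence went from 1.09 to 9.80, from 2.77 to 9.89 and from 1.48 to 10.7 RPKM. As with Ccr1, it is not known whether these 5 peaks were called in spleen. Peaks found in LI alone are low in spleen by the way they were found. The lower end of the interval of Ccr2 lay above the upper end of the interval of Ccr9, 1.20.

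Gpr15, which directs T cells to the large intestine, lies at chr16:58717433-58719070 on the minus strand. It had 1 peak of 1702 bp (chr16:58716860-58718561), which covered 84.9% of the coding sequence and ran past the 3′ end of the gene into the end of Cpox, a haem synthesis gene on the plus strand. It measured 2.36 RPKM in spleen and 14.0 RPKM in LI, a log2 ratio of 2.34 (interval 1.47 to 3.22), from about 12 and 92 reads. With a pseudocount of 5 it was 1.37. The spleen value was lower than that of all but 1.23% of peaks. As with Ccr1 and Ccr2, it is not known whether the peak was called in spleen. A peak found in LI alone is low in spleen by the way it was found. The neighbours were higher in LI by smaller amounts: the 7 peaks of Cpox summed to 61.2 and 95.2 RPKM (log2 ratio 0.63, interval 0.31 to 0.96), and the 2 peaks of Cldnd1, a claudin-domain membrane protein gene 8.84 kb away, to 21.1 and 35 RPKM (0.71, interval 0.24 to 1.19). ChIP reads carry no strand, so signal over the shared end cannot be assigned to Gpr15 or Cpox.

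Markers of cells that also carry these receptors were set beside the values of Ccr1 and Ccr2, which monocytes and macrophages express. Over the 10 myeloid markers the sum came to 30.2 RPKM in spleen and 30.9 RPKM in LI, all of it from Csf1r (14.9 and 16.1) and Cd68 (15.3 and 14.8), and Spi1, Adgre1, Mpeg1, Cd14, Fcgr1, Clec7a, Lyz2 and Itgam had no peak. Over the 12 epithelial markers it was 63.4 and 105 RPKM, higher in LI, from Epcam (25.7 and 46.5), Lgals4 (25.6 and 33.5), Cldn7 (7.40 and 12.7) and Vil1 (4.70 and 12.4), while Cdh1, Krt8, Krt18, Krt19, Krt20, Muc2, Fabp2 and Slc26a3 had no peak. The B cell markers summed to 73.7 and 52.8 RPKM, from Cd79a (48 and 29.3), Cd22 (12.6 and 0.244), Cd79b (9.10 and 13.5) and Pax5 (4.12 and 9.76). Ms4a1, Ebf1 and Blk had no peak. The CD8 T cell markers summed to 21.4 and 9.31 RPKM, all of it from Cd8b1 (log2 ratio -1.16). The part of other cells in the receptor values was not tested.

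Ccr9, the receptor for Ccl25 and the homing receptor of the small intestine, had the most peaks of the 8 genes. Its 27 peaks summed to 158 RPKM in spleen and 305 RPKM in LI, a log2 ratio of 0.95 (interval 0.69 to 1.20). Of these peaks 25 were higher in LI and 13 past 2-fold. The strongest, of 417 bp in the coding exon (chr9:123779370-123779786), went from 9.33 RPKM in spleen to 19.9 RPKM in LI (log2 ratio 1.05). The highest ratio, 3.58, belonged to an intronic peak of 203 bp that went from 0.541 to 12 RPKM on about 9 reads in LI, and the lowest, -0.47, to one that went from 11.1 to 7.88 RPKM.

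The gene body of Ccr9 in GENCODE M21, chr9:123678439-123784330, starts 88.8 kb before the RefSeq start of the gene and takes in Lztfl1, a gene of ciliary protein transport on the opposite strand. The 16 peaks that also lay in Lztfl1 summed to 99.6 and 184 RPKM (log2 ratio 0.89, interval 0.59 to 1.18). The 3 peaks between the M21 start and Lztfl1, inside the non-coding gene Gm17200, summed to 10.4 and 31.4 RPKM (1.55, interval 0.44 to 2.67). The 8 peaks after the RefSeq start, which include the coding exon, summed to 48.4 and 89.7 RPKM (0.88, interval 0.37 to 1.40). All 3 stretches were thus higher in LI, and the 8 peaks that do not rest on the long gene model had nearly the ratio of the whole. Those 8 also lay in AC165425.1, a non-coding gene on the minus strand. ChIP reads carry no strand, so the signal of none of the 3 stretches can be assigned to Ccr9 alone. With 4 of 14 other settings Ccr9 was past 2-fold, at 1.02 with peaks given to the nearest transcript start and up to 1.09 with the correction for GC content, and the 2 peaks of 1 kb or more, both in Lztfl1, gave 0.54.

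**Figure D3:**
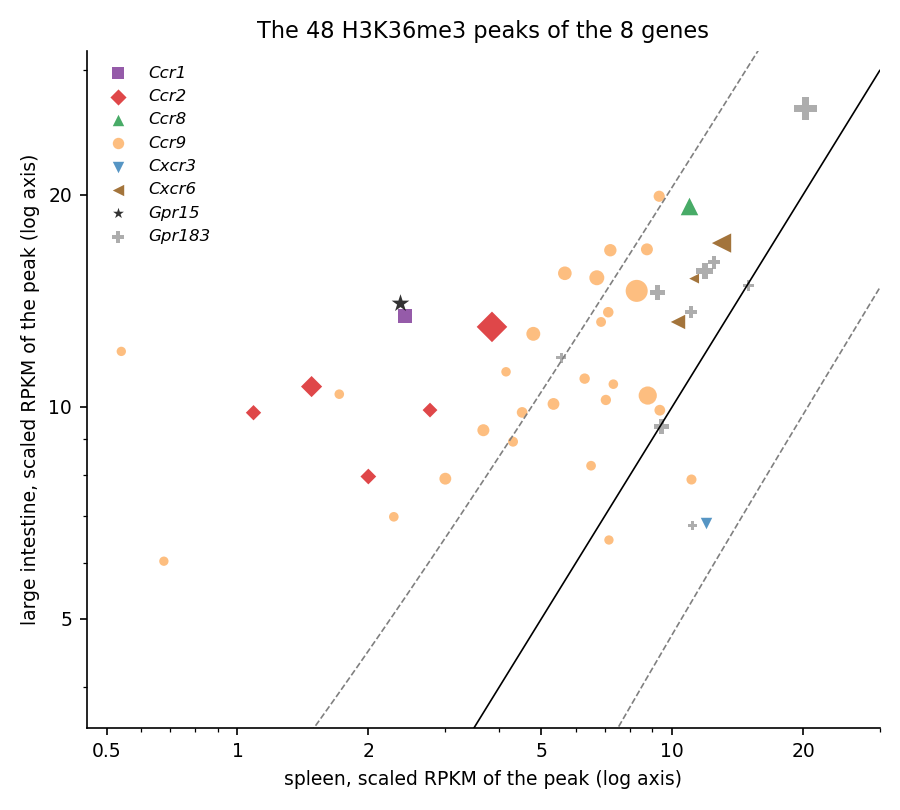
The 48 peaks of the 8 receptor genes by scaled RPKM in spleen (x axis, log scale) and in LI (y axis, log scale), with symbols by gene and sized by peak length. The solid line marks equal values and dashed lines 2-fold after 0.5 is added to both values, and 42 peaks lay above the line of equal values, 21 of them past 2-fold, and the 6 below it belonged to Ccr9, Gpr183 and Cxcr3.

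Across the 48 peaks, 42 were higher in LI, against a background of 49% of all peaks, and 21 were past 2-fold (43.8%), against 9.05% of all peaks. 0 of the 48 were past 2-fold higher in spleen, against a background of 9.6%. Of the 21 peaks past 2-fold, 13 belonged to Ccr9 and 5 to Ccr2, and peaks of 1 gene are not independent. Of the 13 in the body of Ccr9, 10 lay before its RefSeq start, 7 of them in Lztfl1 on the opposite strand, and 3 after it. These peak counts therefore include signal that cannot be assigned to Ccr9 alone. Midpoints of 33 peaks lay in introns, 8 in untranslated or non-coding exons and 7 in coding exons, and 39 peaks also lay in another gene. Their median GC content was 42.7%, against 46.5% over all peaks, and the ratio of the libraries varied with GC content, with corrections of the log2 ratio from -0.68 to 0.50 over 50 GC classes. With this correction, the ratios were 2.24 for Ccr1, 2.42 for Ccr2, 2.38 for Gpr15, 1.09 for Ccr9, 0.62 for Ccr8, 0.40 for Cxcr6, 0.33 for Gpr183 and -1.06 for Cxcr3, which put Ccr9 and, with no minimum, Cxcr3 past 2-fold.

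Ccr8, the receptor for Ccl1 and Ccl8, lies at chr9:120092114-120094906 on the plus strand, away from the cluster of chemokine receptor genes. It had 1 peak of 1474 bp (chr9:120093596-120095069) that held its whole coding sequence. It measured 10.9 RPKM in spleen and 19.3 RPKM in LI, a log2 ratio of 0.79 (interval 0.30 to 1.29), from about 47 and 110 reads, and in LI it stood above 94.1% of all peaks. The nearest coding genes had smaller ratios. Cx3cr1, the fractalkine receptor gene, had 186 and 239 RPKM (log2 ratio 0.36, interval 0.22 to 0.50, or 0.27 to 0.45 with reads of 75 bp). Its GENCODE body is long, chr9:119901616-120069879, and whether its 12 peaks belong to Cx3cr1 or to other genes in that stretch was not examined. Slc25a38, a mitochondrial carrier gene, had 90.6 and 107 RPKM (0.23, interval -0.04 to 0.51, or 0.07 to 0.40 with reads of 75 bp). The interval of Ccr8 overlapped both with reads of 200 bp. With reads of 75 bp it was 0.49 to 1.09 and overlapped neither.

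Cxcr6, the receptor for Cxcl16, lies at chr9:123806475-123811760 on the plus strand, within Fyco1, a gene of vesicle transport on the minus strand. Its 3 peaks summed to 34.5 RPKM in spleen and 45.4 RPKM in LI, a log2 ratio of 0.39 (interval -0.09 to 0.87). The interval was 0.10 to 0.68 with reads of 75 bp, so whether the difference passed counting error depends on the length taken. The peak of 1844 bp over the coding exon went from 13.0 to 17.1 RPKM, the intronic peak of 898 bp from 10.3 to 13.2 RPKM and that of 254 bp from 11.2 to 15.2 RPKM. The 28 peaks of Fyco1 outside Cxcr6 summed to 323 and 350 RPKM (log2 ratio 0.11, interval -0.03 to 0.26, or 0.03 to 0.20 with reads of 75 bp), and the intervals of the 2 genes overlapped with either length. Peaks given to the nearest transcript start raised the number of Cxcr6 peaks to 15 and lowered its ratio to 0.08.

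Gpr183, which senses oxysterols and positions lymphocytes in lymphoid tissue and in the colon, had the highest level of the 8 genes in spleen. It lies at chr14:121952551-121965195 on the minus strand, within Ubac2, a gene of protein degradation on the plus strand. Its 9 peaks summed to 106 RPKM in spleen and 129 RPKM in LI, a log2 ratio of 0.28 (interval 0.016 to 0.55), and 6 of the 9 were higher in LI. The peak of 2698 bp that holds its whole coding sequence (chr14:121952571-121955268) went from 20.2 RPKM in spleen to 26.5 RPKM in LI (log2 ratio 0.38) and stood above 98.5% of all peaks there.

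Among the other 8 peaks of Gpr183, read from the coding exon towards the start, 1 went from 9.24 to 14.5 RPKM, 1 from 9.44 to 9.38 RPKM and 1 from 11.9 to 15.6 RPKM. The next went from 11.1 to 6.79 RPKM, with the lowest ratio of the gene at -0.67 on 218 bp, and after it 1 went from 15.0 to 14.9 RPKM. The last 3 went from 12.5 to 16, from 11 to 13.6 and from 5.55 to 11.7 RPKM, the latter with the highest ratio of 1.02 on 276 bp. The ratios of these shorter peaks thus lay on both sides of that of the long coding peak.

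**Figure D4:**
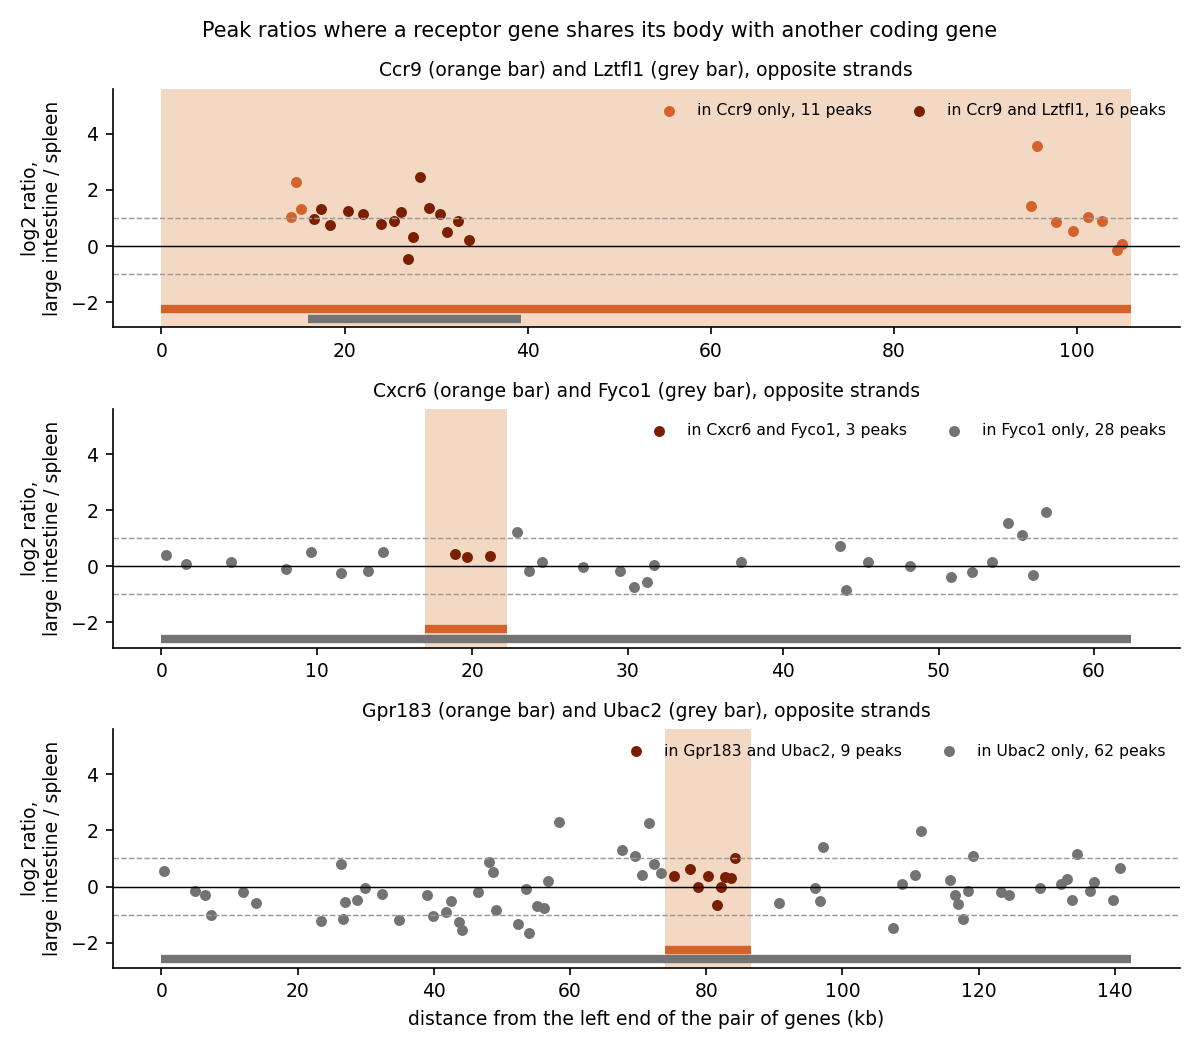
Log2 ratio of each peak, LI over spleen (y axis), by distance from the left end of the pair of genes in kb (x axis), for Ccr9 with Lztfl1, Cxcr6 with Fyco1 and Gpr183 with Ubac2. Orange bars and shading span the receptor gene, grey bars the gene on the opposite strand, and dashed lines mark 2-fold. In Ccr9 25 of 27 peaks were above 0, in Cxcr6 all 3 and in Gpr183 6 of 9, against 16 of the 28 peaks of Fyco1 and 23 of the 62 peaks of Ubac2 outside the receptor genes.

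The 62 peaks of Ubac2 outside Gpr183 summed to 641 and 602 RPKM (log2 ratio -0.09, interval -0.24 to 0.06). The interval of Gpr183 overlapped this one between 0.016 and 0.06, but with reads of 75 bp the intervals were 0.12 to 0.45 for Gpr183 and -0.18 to 0.0014 for Ubac2 and did not overlap. Peaks beside the gene were also read, a choice made after the values were seen. In the 10 kb past the 3′ end of Gpr183, 6 of 6 peaks were higher in LI, with sums of 44.9 and 91.7 RPKM (log2 ratio 1.02, single peaks from 0.41 to 2.27), whereas the 2 peaks in the 10 kb before its start summed to 21.5 and 17.0 RPKM (-0.34). The same windows around Cxcr6 had 57.7 and 58.9 RPKM before its start (0.03) and 89.8 and 86.3 RPKM past its 3′ end (-0.06). Which strand the signal beside Gpr183 belongs to cannot be told from these data, and Gpr18, a lipid receptor gene within Ubac2 36.8 kb away, had 12.6 and 5.24 RPKM in its 1 peak (-1.19, interval -2.80 to 0.43, or -2.18 to -0.20 with reads of 75 bp).

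Cxcr3, the receptor for Cxcl9 and Cxcl10, lies at chrX:101731535-101734269 on the minus strand. It was the one receptor gene with the higher value in spleen. Its 1 peak of 455 bp (chrX:101732493-101732947) lay in the coding exon and covered 41.3% of the coding sequence, with 12 RPKM in spleen and 6.83 RPKM in LI. The log2 ratio of -0.77 had an interval of -1.85 to 0.31 on about 16 and 12 reads. With reads of 75 bp it was -1.43 to -0.11, so whether the difference was detectable at this depth depends on the length taken. Ogt, the nearest coding gene with a peak, had 308 and 262 RPKM over 28 peaks (log2 ratio -0.24, interval -0.40 to -0.07).

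Of the 8 receptor genes, 5 lie on chromosome 9, and Ccr9, Cxcr6, Ccr1 and Ccr2 lie in 1 cluster with the related genes Xcr1, Ccr1l1 and Ccr3. From Slc6a20a to Ccr2 this stretch holds 10 coding genes in 479 kb, with 66 peaks, of which 2 were in no coding gene. Slc6a20a, Xcr1, Ccr1l1 and Ccr3 had no peak. In the 262 kb from the end of Fyco1 to the end of Ccr2 there were 6 peaks, and all 6 lay in Ccr1 and Ccr2. The map of the cluster shows signal of both libraries over Ccr9, Lztfl1, Fyco1 and Cxcr6 and low spleen signal over Ccr1 and Ccr2.

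**Figure D5:**
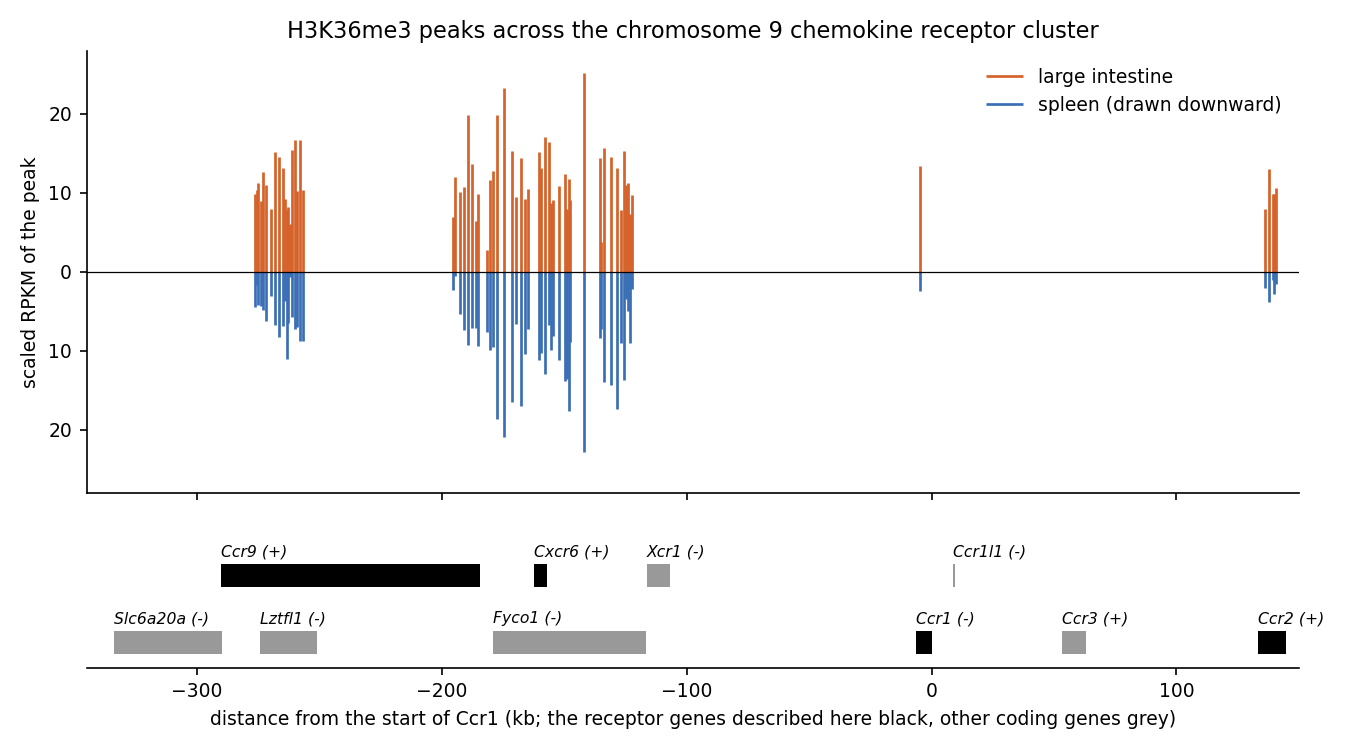
Scaled RPKM of the 66 peaks (y axis) by distance from the start of Ccr1 in kb (x axis), LI upward and spleen downward, above the coding genes of the chromosome 9 cluster with their strands, drawn as far as the end of Ccr2. The 6 peaks of Ccr1 and Ccr2 had between 1.09 and 3.85 RPKM in spleen and between 7.96 and 13.4 RPKM in LI.

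Fyco1, on the other side of the stretch without peaks, had a log2 ratio of 0.14 (interval 0.0055 to 0.28), and Slc6a20b, the coding gene ahead of the cluster, 0.02 (interval -0.57 to 0.60).

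Other chemokine receptor genes were read beside these. Of the 16 further genes of the family described here, 7 had a peak and passed the minimum, 3 higher in LI and 4 in spleen. Ccr7, the lymph node homing receptor, was past 2-fold higher in spleen with 62.5 RPKM there and 24.4 RPKM in LI (-1.34, interval -1.64 to -1.04). Ccr6, which follows Ccl20 at mucosal surfaces, had 57.0 and 106 RPKM (0.89, interval 0.53 to 1.25). Of 15 other receptors for attractants and lipids, 6 passed the minimum, 3 in each direction, with a median of 0.16. S1pr1, which lets lymphocytes leave lymphoid organs, had 32.5 RPKM in spleen and 9.22 RPKM in LI (-1.76, interval -2.23 to -1.30), and Gpr55, a lysolipid receptor, had 36.4 and 98.2 RPKM (1.42, interval 1.08 to 1.75). Gpr174, a receptor for lysophosphatidylserine, had 70.3 and 56.9 RPKM (-0.30, interval -0.75 to 0.14).

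No peak reached the starts of the receptor genes as RefSeq places them. Promoter windows of 250 bases before and 50 bases after the start overlapped a peak at 0 of the 8 genes and at 4.5% of all 32851 windows. With so low a background, 0 of 8 does not set these genes apart. The nearest edge of a peak lay 509 bp inside the gene for Gpr15, 1322 bp for Cxcr3, 1482 bp for Ccr8, 1757 bp for Cxcr6, 2246 bp for Gpr183, 2663 bp for Ccr2 and 4317 bp for Ccr1, measured from the GENCODE start. For Ccr9 that edge lay 13916 bp past the GENCODE start, which is 88.8 kb before the RefSeq start. Whole coding sequences lay in peaks for Ccr2, Ccr8, Cxcr6 and Gpr183. For Ccr1 the share was 89.1%, for Gpr15 84.9%, for Cxcr3 41.3% and for Ccr9 37.7%.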

How the data were processed

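H3K36me3 was immunoprecipitated from equal amounts of chromatin of the 2 pools of sorted cells. The authors aligned single-end 75-nt reads to mm10 (the submitters' processing notes name Bowtie2), called peaks per tissue with MACS2 against the input, merged them, and averaged coverage tracks over each merged peak; tool versions are not given in the sources used here. The deposited values are RPKM, although the table is labelled as raw counts, and no count test was run. Value times length was a whole multiple of 1 step in 100% of bin-aligned peaks (tolerance 0.02), the step being 1.69 RPKM in spleen and 1.31 RPKM in LI, which with a 20-bp bin gives the depths above.

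Both columns were scaled to their mean total (factors 1.02 and 0.984). Midpoints were assigned to gene bodies of GENCODE M21 on GRCm38, where 0 of 21 chromosomes had a peak past its end. A gene was called at over 2-fold with a pseudocount of 0.5 and a minimum of 20 RPKM over both libraries. Counting intervals took reads as covering 200 bp, with 75 bp as the other length tried, and treated reads as independent. Ratios and intervals were tried on simulated reads drawn by the same counting rule and the same length of 200 bp. Such a trial cannot check the length reads covered, how peaks were found or the spread between preparations. Python 3.11.15, numpy 2.4.6 and pandas 2.3.3 were used. The receptor genes and gene lists were chosen with earlier results of these data known. Named genes were the 8 receptor genes, those that overlap or flank them, and from each list the genes past 2-fold and the 2 with the most signal; other genes named from the lists (Foxp3, Gng2 and the remaining cell type markers) were added outside this rule after values were seen. The sequences of Ccr1 and Gpr15 were added after values were seen. The lists of further chemokine receptors and of B cell markers are each given without 1 gene that is not reported here, so the counts of the first do not cover the whole family and no median is given for it.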

Additional observations from a re-analysis of the deposited data

How the results depend on the processing

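With 13 alternatives chosen at the outset and 2 added after the data were seen, 104 of 106 receptor gene ratios stayed within their counting intervals and 0 changed sign. Many of these ratios could not change. A gene with 1 peak keeps its ratio with no minimum or with its strongest peak, and the RefSeq start of Ccr9 alters Ccr9 alone. The count of 104 is therefore not a measure of robustness. The exceptions were Ccr9 from peaks of 1 kb or more (0.54) and Gpr15 with a pseudocount of 5 (1.37). Ranges were 1.31 to 2.29 for Ccr1, 1.63 to 2.42 for Ccr2, 1.37 to 2.43 for Gpr15, 0.54 to 1.09 for Ccr9, 0.61 to 0.84 for Ccr8, 0.08 to 0.46 for Cxcr6, 0.12 to 0.45 for Gpr183 and -1.06 to -0.52 for Cxcr3. The receptor genes past 2-fold higher in LI, 1 as reported, numbered 3 with no minimum, 0 with a minimum of 200 or with peaks of 1 kb or more, and 2 with nearest starts, length weighting, GC correction or no peaks shared with another coding gene (added). Those higher in LI, 5 as reported, numbered 2 of 2 with a minimum of 200 or with peaks in no other gene body, and 3 of 3 without peaks shared with another coding gene, since fewer genes then passed. The last 2 rules leave no peak for Cxcr6 and Gpr183, and the stricter none for Ccr9.

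Of all genes, 370 were past 2-fold higher in LI and 225 in spleen. These counts were 625 and 458 with no minimum, 69 and 39 with a minimum of 200, 207 and 92 with length weighting, and 120 and 40 with peaks of 1 kb or more, and 138 were higher in spleen with a pseudocount of 5; beyond the number of genes passing, the cause was not tested. No paired analysis was possible because each tissue had 1 library. The depth limits the genes below the minimum, each with 1 peak: Ccr1, Gpr15 and Cxcr3 rest on about 7 to 16 reads in spleen, and counting error alone spans over 1 log2 unit there.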

Other observations

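Of 17 ligand genes and genes of oxysterol metabolism, 3 had a peak, beside 11946 of the 55450 genes of the annotation. The annotation also holds non-coding genes and pseudogenes, so the shares come from unlike sets. Of the 17 genes, 14 had no peak, among them Ccl1, Ccl2, Ccl3, Ccl4, Ccl5, Cxcl9, Cxcl10, Ch25h and Cyp7b1. Ccl25, the ligand of Ccr9, had 72.3 RPKM in spleen and 72.2 RPKM in LI, and Cxcl16, the ligand of Cxcr6, had 11 and 10.4 RPKM in 1 peak. Hsd3b7, an enzyme that degrades the oxysterol ligands of Gpr183, was past 2-fold higher in spleen with 31.6 RPKM there and 13.4 RPKM in LI (log2 ratio -1.20, counting interval -2.20 to -0.21).

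Genes of proteins that pass on the receptor signal all carried peaks. All 15 genes of Gi signalling and migration passed the minimum, 7 were higher in LI and 8 in spleen, and 0 were past 2-fold, with a median log2 ratio of -0.03. Dock2, a Rac activator, had the largest sum of the list, over 223 peaks, with 2684 RPKM in spleen and 2276 RPKM in LI (-0.24, interval -0.30 to -0.18). Elmo1, its partner, had 1441 and 1655 RPKM over 166 peaks (0.20, interval 0.11 to 0.29). Gng2, a G protein gamma subunit and the highest ratio of the list, had 136 and 263 RPKM over 24 peaks (0.96, interval 0.70 to 1.21), and all 24 were higher in LI; it was singled out after its values were seen.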
